A study of Mus musculus with 2 samples.

Results

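T cells of the small intestine lie in 2 main places, as intraepithelial lymphocytes between the epithelial cells and as T cells of the lamina propria beneath them. The 36 genes described here encode the T cell receptor complex and its coreceptors, the kinases and adaptors that carry its signal, the cytotoxic machinery, and costimulatory, checkpoint and transcription factor genes of helper T cells. They were chosen by name, and their probes were taken where the array's gene name, or the current RefSeq symbol of the probe's accession, matched. All 36 members had a probe, 53 probes in all, among the 27616 gene names on the array. By role, 19 members are receptor and signalling genes, 9 are cytotoxic genes and 8 are helper and checkpoint genes.

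The T cell receptor recognises a peptide on an MHC molecule, and the CD3 chains pass the signal inward. The kinase Lck, held by the coreceptors CD4 or CD8, then phosphorylates the CD3 chains and the kinase Zap70. Intraepithelial lymphocytes are known for their CD8 expression and their stores of granzymes. Natural intraepithelial lymphocytes, many of them with a gamma delta receptor, often carry CD8 as a pair of alpha chains and have little or no CD5, CD2, CD28 and Thy1. Those that arise from conventional T cells after exposure to antigen usually carry CD8 as an alpha beta pair, together with CD5.

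The mice on the food antigen-free diet (FAF) were C57BL/6 animals aged 6 to 8 weeks, kept on amino acids in place of food protein for up to 5 generations. The control mice (Conv) were C57BL/6 animals of the same age on conventional chow. Mice with a specific-pathogen-free flora and germ-free mice both appear in the labels, which leave unsaid whose RNA was hybridised and whether it came from 1 mouse or a pool. Total RNA of the small intestine was hybridised to 2 Agilent two-colour arrays with the dyes exchanged, so there was 1 RNA sample per diet. On array 1 FAF carried Cy5 and Conv Cy3, and on array 2 FAF carried Cy3 and Conv Cy5.

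Each ratio is given on the log2 scale as FAF over Conv, averaged over both arrays, and the ± sign gives the distance of either array from that mean. This distance measures dye and hybridisation error and not the spread between mice, so no test between the diets was possible. A gene was called when the mean ratio was at least 2-fold and each array gave at least 1.5-fold the same way. A gene counted as measured when its probe was well above background on both arrays in at least 1 diet, and its brightest such probe stood for it. The number of arrays limits the precision of every value, and between 60.2% and 63.6% of probes were well above background in a given channel.

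Of the 36 members, 32 were measured, 29 of them in both diets and 3, Cd28, Pdcd1 and Sh2d1a, in Conv only. Cd160, Eomes, Ctla4 and Cd40lg were well above background in neither diet, so no ratio is given for them. A list of 13 T cell markers, 12 of them members, had all but 1 measured, and the exception was Cd4, the helper coreceptor.

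Among the 32 measured members, 3 were lower in FAF, namely Cd8b1, Cd6 and Cd5, and 0 were higher. That is 9.38% of measured members called lower, where 0.88% of all 17150 measured genes were called lower and 1.53% were called higher. The median ratio was -0.25 over the measured members, against -0.00086 over all measured genes. Both arrays were below 0 for 26 of the 32 members, or 81.2%, where 39.4% of all genes had both arrays below 0. The 3 members measured in Conv only passed the filter through the diet in which they were higher. Without them both arrays were below 0 for 23 of 29, where 40.3% of all genes well above background in both diets were. Both were above 0 for 4 members, Klrd1, Ptprc, Bcl6 and Gata3, where 38.7% of all genes had both above 0. In bulk tissue RNA, fewer T cells and less RNA per T cell cannot be told apart.

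**Figure D1:**
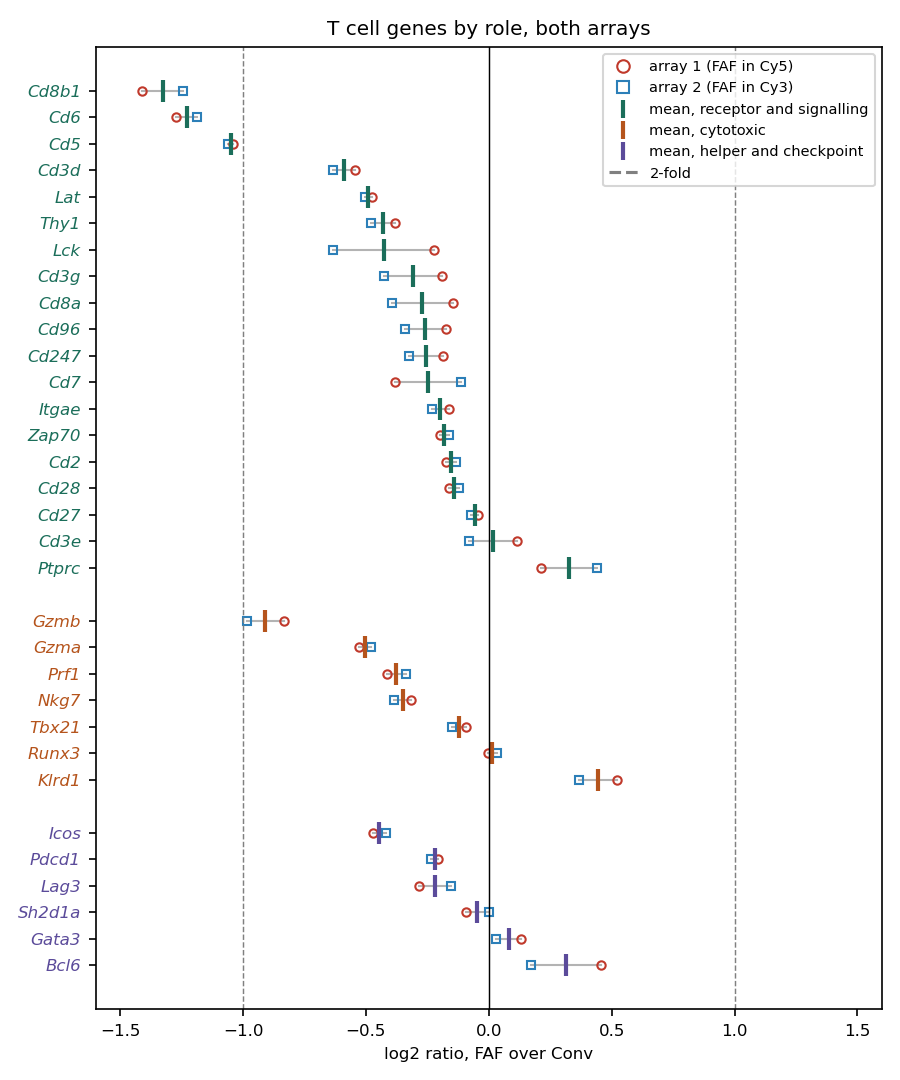
The log2 ratio of FAF over Conv (horizontal axis) is plotted for the 32 measured members, ordered within each role, with open circles for array 1, open squares for array 2 and a bar for their mean. Cd8b1, Cd6 and Cd5 lie beyond the dashed line of 2-fold on the lower side, and Klrd1 at 0.45 lies farthest to the other side.

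Cd8b1, the beta chain of the CD8 coreceptor, stood lowest of the members. It had normalised log2 intensities of 7.43 and 7.63 in FAF, on arrays 1 and 2, against 8.84 and 8.87 in Conv. The FAF values lay below both Conv values in either dye. The ratio was -1.33 ± 0.08, or 2.51-fold lower in FAF. Its probe lies at chr6:71287068-71287126 on the plus strand in build mm9.

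Cd8a, the alpha chain of the same coreceptor and its direct neighbour on the chromosome, differed far less. Its brightest probe had log2 intensities of 8.67 and 8.59 in FAF, against 8.82 and 8.98 in Conv. The ratio was -0.27 ± 0.12, and its other probes gave -0.15 and -0.07, so all 3 Cd8a probes were short of the rule. The difference between the ratios of Cd8b1 and Cd8a was -1.27 on array 1 and -0.85 on array 2, a mean of -1.06 ± 0.21. The probes on which this contrast rests are shown by the first 30 of their 60 bases, 5′ to 3′, as in the array file.
Cd8b1 probe: ggaccctggagaagactgcaaatcctcaca
Cd8a probe: ttaggtatgtgtctttagtatagcatgctt

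Cd5 and Cd6, which encode related scavenger receptor molecules that temper T cell receptor signalling, were lower too. They are neighbouring genes on chromosome 19. Cd5 had log2 intensities of 7.25 and 7.26 in FAF, against 8.29 and 8.32 in Conv. The groups did not overlap, and the ratio of -1.05 ± 0.01, or 2.07-fold lower in FAF, differed hardly at all between the arrays. The brighter Cd6 probe had log2 intensities of 8.25 and 8.33 in FAF, against 9.52 and 9.52 in Conv. Its ratio was -1.23 ± 0.04, or 2.35-fold lower in FAF.

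The 2 Cd6 probes disagreed. The dimmer one, which the array assigns to another RefSeq transcript of the gene, had log2 intensities of 7.22 and 6.69 in FAF, against 7.16 and 6.87 in Conv. Its ratio was -0.06 ± 0.12, with the arrays on opposite sides of 0. The brighter probe lies at chr19:10863891-10863950 and the dimmer one spans chr19:10867422-10868678, both on the minus strand in mm9. The second span is 1257 bases for an oligonucleotide of 60, so that probe crosses a splice junction. With the mean over probes in place of the brighter one, Cd6 stood at -0.64 and was not called. The first 30 bases of the probes of Cd5 and Cd6 are given because 2 of the 3 calls, and this disagreement, rest on them.
Cd5 probe: gaccagtggggttggctttctccttggact
Cd6 brighter probe: ggttattgcagccaagaccttaaacaggtc
Cd6 dimmer probe: agggatcaataactaccatcctgtccctat

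**Figure D2:**
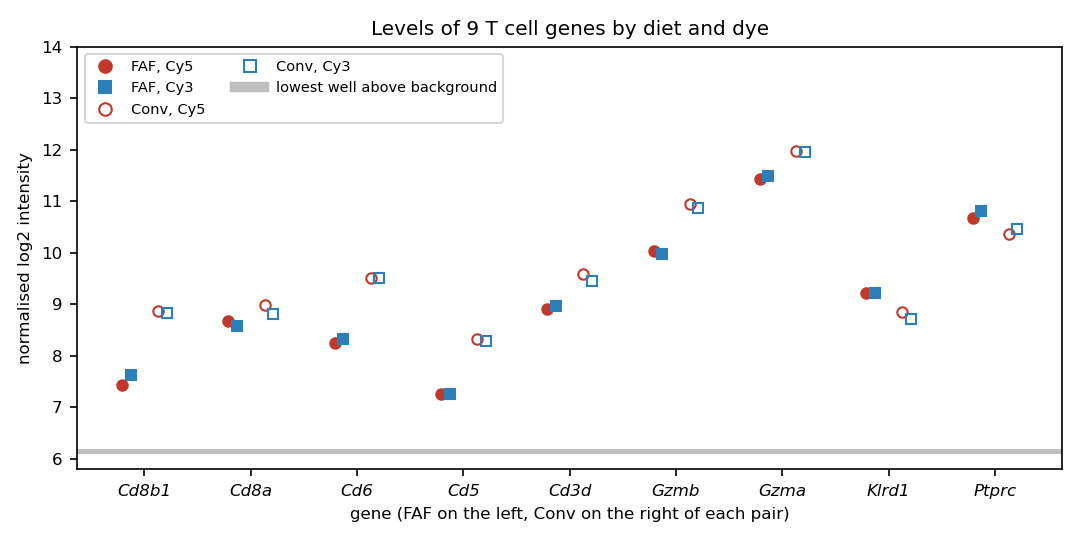
The normalised log2 intensity (vertical axis) of 9 members is plotted with FAF as filled symbols on the left and Conv as open symbols on the right of each pair, circles for Cy5 and squares for Cy3. The grey band marks the lowest intensities that were well above background. FAF lies below Conv in both dyes for Cd8b1, Cd8a, Cd6, Cd5, Cd3d, Gzmb and Gzma, and above it for Klrd1 and Ptprc.

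The genes of the CD3 complex differed among themselves, although Cd3d, Cd3e and Cd3g are neighbours on chromosome 9. Cd3d had log2 intensities of 8.90 and 8.96 in FAF, against 9.45 and 9.60 in Conv. The FAF values were the lower ones in both dyes, with a ratio of -0.59 ± 0.05. Cd3g had a ratio of -0.31 ± 0.12. Cd3e had intensities of 7.47 and 7.34 in FAF, against 7.36 and 7.42 in Conv. Its diets overlapped and the ratio was 0.02 ± 0.10. The difference between Cd3d and Cd3e was -0.60 ± 0.05, beyond the distance between the arrays. Cd247, the zeta chain, had -0.25 ± 0.07 on its brightest probe, the only one of its 4 probes that was measured.

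The signalling genes downstream of the receptor had small ratios. The adaptor Lat had -0.49 ± 0.01 and the kinase Lck -0.43 ± 0.20, with the arrays at -0.22 and -0.63. Zap70 had -0.18 ± 0.02. Each of these was below 0 on both arrays and short of the rule. Ptprc, the CD45 phosphatase carried by all leukocytes, had log2 intensities of 10.68 and 10.82 in FAF, against 10.47 and 10.37 in Conv. It was the only receptor or signalling member above 0 on both arrays, at 0.33 ± 0.11. Its other 3 probes, all dimmer, gave 0.23, 0.01 and -0.02.

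Among the other surface molecules, Thy1, a glycoprotein anchored in the membrane of T cells, had on its brighter probe log2 intensities of 9.36 and 9.27 in FAF, against 9.74 and 9.75 in Conv. Its ratio was -0.43 ± 0.05, with the dimmer probe at -0.17 ± 0.08 and the mean over probes at -0.30. Cd96, an adhesion receptor for Nectin-family ligands, had -0.26 ± 0.08, and Cd7, an immunoglobulin-type receptor, had -0.25 ± 0.13. Itgae, the alpha E integrin that binds E-cadherin on epithelial cells, had -0.20 ± 0.04. All 4 were below 0 on both arrays.

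Cd2, an adhesion molecule that binds CD48 in the mouse, had -0.15 ± 0.02, and the costimulatory receptor Cd27 had -0.06 ± 0.01. Cd28, the main costimulatory receptor of T cells, had -0.14 ± 0.02. In Conv it was well above background at all 10 of its spots on either array, and in FAF at 8 and 9 of 10. Cd28 thus counted as measured in Conv only, and the size of its ratio is uncertain. As a group, the receptor and signalling genes had 3 of 19 lower and 0 higher, where 0.88% and 1.53% of all genes were. Their median was -0.26, and -0.52 by the scanner software's own log ratio.

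Among the cytotoxic genes, Gzmb encodes granzyme B, a protease that triggers apoptosis in target cells. It had log2 intensities of 10.03 and 9.97 in FAF, against 10.87 and 10.96 in Conv. The FAF values lay below both Conv values, and the ratio was -0.91 ± 0.08, or 1.88-fold lower in FAF, just short of 2-fold. Its probe lies at chr14:56877916-56877975 on the minus strand in mm9.

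Gzma, another granule protease, had log2 intensities of 11.43 and 11.50 in FAF, against 11.96 and 11.98 in Conv. Its ratio was -0.50 ± 0.02. The pore-forming perforin, Prf1, was dim, with 6.42 and 6.61 in FAF and 6.84 and 6.95 in Conv, and had a ratio of -0.38 ± 0.04. Nkg7, a granule membrane protein, had -0.35 ± 0.03, and its dimmer probe had -0.35 ± 0.20. These 4 effector genes were below 0 on both arrays.

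Klrd1, the CD94 chain of inhibitory and activating NK receptors, ran the other way. It had log2 intensities of 9.23 and 9.22 in FAF, against 8.71 and 8.86 in Conv. Both FAF values lay above both Conv values, and the ratio was 0.45 ± 0.08, short of the rule. The difference between the ratios of Klrd1 and Gzmb was 1.35 on both arrays. Tbx21, the transcription factor T-bet, had -0.12 ± 0.03. Runx3, a transcription factor of CD8 T cells, had 0.02 ± 0.02, and its other probe -0.05 ± 0.08. The cytotoxic genes had 0 of 7 measured members called, too few genes to set against the 0.88% lower and 1.53% higher of all genes. Their median was -0.35, and -0.12 with no filter on dim probes. Granzymes belong to a family of similar genes, so signal shared between family members cannot be told apart by 1 probe each.

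The helper and checkpoint genes were mostly dim. Icos, a costimulatory receptor of activated and follicular helper T cells, had log2 intensities of 7.02 and 6.97 in FAF, against 7.49 and 7.39 in Conv. The diets did not overlap on this probe, whose ratio was -0.44 ± 0.03. The dimmer Icos probe had -0.06 ± 0.00, and the mean over probes was -0.25. The checkpoint receptor Lag3, which binds MHC class II, had -0.22 ± 0.06. Pdcd1, the PD-1 receptor, and Sh2d1a, the SAP adaptor of follicular helper T cells, were well above background in Conv only. Their ratios were -0.22 ± 0.01 and -0.05 ± 0.05, with Sh2d1a at -0.001 on array 2. The FAF signal was not well above background, so the size of both ratios is uncertain.

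Bcl6, a transcription factor of follicular helper T cells that germinal centre B cells and other cells also express, had 10.45 and 10.29 in FAF, against 9.996 and 10.12 in Conv. The FAF values were the higher ones, at a ratio of 0.31 ± 0.14. Gata3, the transcription factor of type 2 helper cells, had 0.08 ± 0.05. The helper and checkpoint genes had 0 of 6 measured members called, too few to set against the 0.88% lower and 1.53% higher of all genes. Their median was -0.13, and -0.069 over the 4 well above background in both diets. By the scanner software's own log ratio it was -0.63, so no order of the roles by their medians is given.

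At a wider limit of 1.5-fold with both arrays on the same side, 5 of the 32 members were lower in FAF, adding Cd3d and Gzmb, and 0 were higher. That is 15.6% of measured members, where 3.59% of all genes were lower and 4.52% higher by the same limit. Over the 32 members, array 1 and array 2 correlated at a Pearson r of 0.93, a description only, since the members share both RNA samples. The median distance of an array from the mean was 0.05, with the largest at 0.20 for Lck.

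The size of a dim gene's ratio depended on how background was handled. The background correction used here adds an offset of 50 to each intensity, which pulls the ratios of dim spots towards 0. The scanner software's own log ratio has no such offset. By that ratio Prf1 had -1.16, or 2.23-fold lower in FAF, and was called lower too, besides Cd8b1 at -1.79, Cd5 at -1.62 and Cd6 at -1.45. Of all genes, 2.04% were called lower by that ratio and 2.84% higher.

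Other dim members moved too without passing. Cd2 had -0.84 in place of -0.15, and Icos -0.87 in place of -0.44. Pdcd1 and Sh2d1a stood at -0.97 and -0.89 on that scale, but were not well above background in FAF, so the size of these ratios is uncertain. Over the 14 members with a mean log2 intensity under 8 that were well above background in both diets, the median was -0.43 by the software's ratio and -0.20 with the offset of 50. Over the 15 brighter members it was -0.42 and -0.35. An offset of 10 gave -0.64 for Prf1 and -0.29 for Cd2, between these scales.

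**Figure D3:**
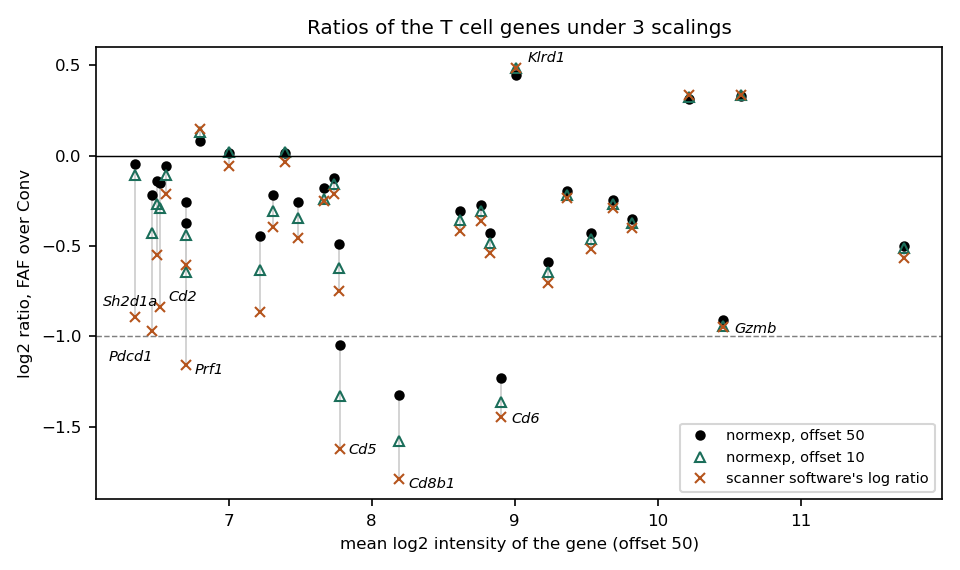
The log2 ratio of FAF over Conv (vertical axis) is plotted against the mean log2 intensity (horizontal axis) for the 32 measured members, with dots for the offset of 50, triangles for the offset of 10 and crosses for the scanner software's log ratio. The scales part for many dim genes, such as Prf1 at -1.16, and also for Cd8b1, at -1.33 and -1.79, and nearly coincide for bright genes such as Gzmb.

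The T cell receptor chains themselves, alpha with beta or gamma with delta, are not among the 36 genes. Their probes were found through the array's descriptions after the values were seen. Of 13 probes for the beta chain, 4 were measured, and all 4 were below 0 on both arrays, from -0.60 to -0.28. The brightest of them, for a complete beta chain mRNA, had log2 intensities of 9.71 and 9.64 in FAF, against 10.27 and 10.28 in Conv. It lies at chr6:41498256-41498315 on the plus strand in mm9, just past a constant region probe that ends at 41497622. The other measured beta probes are annotated to the constant regions. The constant regions of the beta chain are nearly identical copies, so their probes cannot be assigned to 1 of them with certainty. The 4 ratios thus need not be separate observations.

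The gamma chain had 4 of 5 probes measured, with ratios from -0.15 to -0.01. The brightest, with 9.18 and 8.94 in FAF and 9.06 and 9.19 in Conv, overlapped between the diets and stood at -0.06 ± 0.18. A dimmer gamma probe, at -0.06 ± 0.07, is annotated as an aberrantly rearranged gamma chain mRNA of a cell line. The gamma probes thus cannot be read as a measure of gamma delta T cells. The single measured delta probe had 0.06 ± 0.01. It was dim and is annotated only as similar to a delta variable region, so it cannot be assigned to the delta chain with certainty. Like the delta probes that were not measured, it lies among alpha chain probes on chromosome 14. Alpha chain probes were dim and ranged from -0.29 to -0.07 over the 3 measured. By the scanner software's ratio the alpha probes ran from -0.68 to -0.44, the beta probes from -0.66 to -0.38 and the gamma probes from -0.62 to -0.11, so the ranges of the chains overlap on that scale. None of the chain probes passed the rule, and the difference between beta and gamma probes was not tested.

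**Figure D4:**
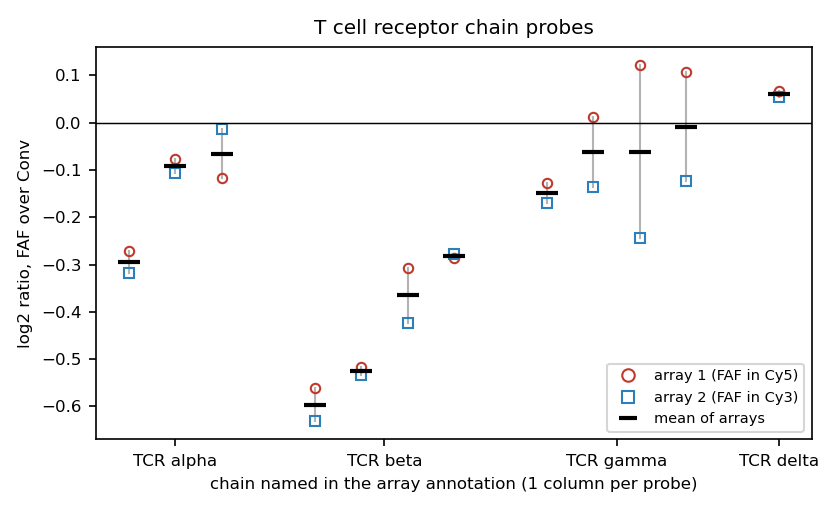
The log2 ratio of FAF over Conv (vertical axis) is plotted for each measured T cell receptor probe, grouped by chain, with circles for array 1, squares for array 2 and a bar for their mean. The 4 beta probes lie between -0.60 and -0.28, and the 4 gamma probes between -0.15 and -0.01.

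Markers that natural intraepithelial lymphocytes are known to lack or hold at a low level were set beside those they are known to hold. The first set, Cd8b1, Cd5, Cd2, Cd28 and Thy1, had all 5 genes below 0 on both arrays, 2 called lower and a median of -0.43. Cd28 entered through Conv only, and the other 4 had a median of -0.74. Of all genes, 0.88% were called lower, 1.53% were called higher and 39.4% had both arrays below 0. Both sets hold too few genes to set against these shares. The second set had 9 of 10 genes measured, 0 called and a median of -0.07. In it 3 genes were above 0 on both arrays, the signalling adaptors Tyrobp at 0.57 ± 0.07 and Fcer1g at 0.24 ± 0.00, besides Klrd1 at 0.45. Below 0 on both arrays were 4, Gzmb at -0.91, Gzma at -0.50, Cd8a at -0.27 and Itgae at -0.20. Tyrobp and Fcer1g are also abundant in myeloid cells, and both sets were listed with earlier results of these data known.

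Of 60 other genes of T cell signalling, homing and differentiation, 53 were measured, 0 were called in either direction, and the median was -0.01. That is 0 where 0.88% of all genes were called lower and 1.53% higher. The lowest was Itgb7 at -0.76 ± 0.03, the beta chain that pairs with the alpha E integrin encoded by Itgae. Next came the chemokine Ccl5, a product of cytotoxic lymphocytes, at -0.63 ± 0.10. By the software's ratio 1 gene of this list was called lower, the dim granzyme gene Gzmk at -1.71.

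Transcripts of other cells differed between the same RNA samples. Beside the counts that follow, 0.88% of all genes were called lower and 1.53% higher. Both arrays were below 0 for 39.4% of all genes and above 0 for 38.7%. The 12 T cell markers had a median of -0.37 and summed intensities of 2992 to 3022 in FAF, against 4393 to 4699 in Conv, offset included. Plasma cell markers were below 0 in 8 of 8, with Fkbp11, a chaperone of secretory cells, lower at -1.07 ± 0.03, a median of -0.61, and sums of 53244 to 64335 in FAF against 81731 to 82620 in Conv. B cell markers had 5 of 10 measured, a median of -0.27, and sums of 1347 to 1435 in FAF against 2153 to 2234 in Conv. Cd79b had -0.83 ± 0.10 and Fcrla -0.49 ± 0.08, while Cd22 was above 0 at 0.30 ± 0.06. The markers Cd79a, Pax5, Blk, Cr2 and Fcer2a were not well above background.

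Markers of innate cells ran both ways. NK and innate lymphoid markers had 6 of 9 measured, with both arrays above 0 for 4 and below 0 for 1, Il18r1 at -0.19 ± 0.11. Their median was 0.22, with sums of 6129 to 6165 in FAF against 3972 to 4327 in Conv. Id2, a transcriptional regulator that innate lymphoid cells need, had 0.57 ± 0.08. The defining NK gene Ncr1 was not well above background, nor were Klra8 and Il23r. The 11 myeloid markers had 7 genes above 0 and 4 below, with a median of 0.24. Their sums were lower in FAF, 48018 to 49350 against 54585 to 56644 in Conv. Cd14, the endotoxin coreceptor, was called lower at -1.08 ± 0.06.

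Tissue markers differed between the RNA samples in both directions. Smooth muscle markers were below 0 in 7 of 7 with a median of -0.58, among them Synm at -0.76 ± 0.06 and Des at -0.74 ± 0.16, and sums of 61103 to 61651 in FAF against 88073 to 96544 in Conv. Fat markers had 4 of 5 measured genes lower, with Cfd at -2.72 ± 0.02, Adipoq at -2.08 ± 0.00, Car3 at -2.07 ± 0.00 and Plin1 at -1.13 ± 0.04, and sums of 8639 to 9508 in FAF against 16298 to 16785 in Conv. The fat hormone gene Lep was not well above background. Endothelial markers were above 0 in 6 of 6 with a median of 0.34, sums of 3582 to 3616 in FAF against 2729 to 2882 in Conv, and Tek at 0.50 ± 0.17 and Emcn at 0.39 ± 0.08.

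Epithelial markers had both arrays below 0 for 3 of 10 genes and above 0 for 2, with a median of -0.04. Among them were Vil1 at 0.39 ± 0.09, Krt20 at 0.38 ± 0.20 and Krt18 at -0.36 ± 0.05. The sums over the epithelial markers were 562155 to 608755 in FAF against 541189 to 608439 in Conv. Absorptive cell genes had 5 of 7 higher, with a median of 1.62 and sums of 637208 to 726564 in FAF against 239309 to 301179 in Conv. The 5 were Apoa4 at 2.71 ± 0.03, Fabp1 at 2.02 ± 0.14, Sis at 1.70 ± 0.07, Lct at 1.62 ± 0.26 and Alpi at 1.31 ± 0.10. Anpep, at -0.15 ± 0.17, was the only gene of that list below 0. The part of these cell types in the ratios of the T cell genes was not tested.

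**Figure D5:**
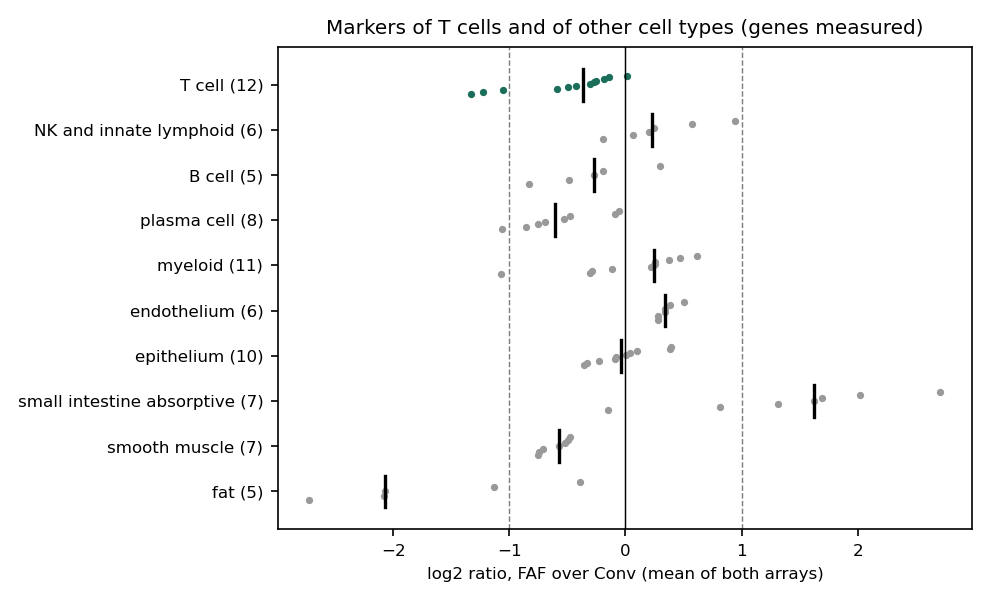
The log2 ratio of FAF over Conv (horizontal axis) is plotted for each measured gene of 10 marker lists, 1 dot per gene, with a bar for the median and the number of genes in brackets. T cell markers have a median of -0.37, plasma cell markers of -0.61 and endothelial markers of 0.34.

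The start regions of the members were read from RefSeq in build GRCm38.p6, which gave 31 promoters for 24 of the 36 members, each of 250 bases before and 50 after the start site. They were searched on both strands for letters that match the core sites of T cell transcription factor families, and matches of different motifs overlapped in 0 of the 31. The ETS letters AGGAAG were in 20 of the 31 (64.5%), where 35.4% of all 32851 promoters hold them. The RUNX letters TGTGGT were in 11 (35.5%, against 16.8%), the TCF letters CTTTGA in 8 (25.8%, against 16.0%) and the GATA letters AGATAA in 2 (6.45%, against 11.2%). Of the 24 members, 6 have more than 1 start site, and a match is not a site of binding.

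Of the 5 members that were at least 1.5-fold lower, Cd5, Cd3d and Gzmb have an entry, and the 250 bases before their start are shown with the matches in capitals. Cd5 holds 2 ETS matches, Cd3d 1 ETS and 2 TCF matches, and Gzmb 2 RUNX matches.
Cd5, chr19:10738975-10739224, minus strand: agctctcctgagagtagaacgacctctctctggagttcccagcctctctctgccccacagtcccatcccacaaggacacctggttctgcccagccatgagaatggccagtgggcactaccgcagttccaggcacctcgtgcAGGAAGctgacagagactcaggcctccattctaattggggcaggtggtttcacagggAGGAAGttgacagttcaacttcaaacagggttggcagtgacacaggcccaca
Cd3d, chr9:44981536-44981785, plus strand: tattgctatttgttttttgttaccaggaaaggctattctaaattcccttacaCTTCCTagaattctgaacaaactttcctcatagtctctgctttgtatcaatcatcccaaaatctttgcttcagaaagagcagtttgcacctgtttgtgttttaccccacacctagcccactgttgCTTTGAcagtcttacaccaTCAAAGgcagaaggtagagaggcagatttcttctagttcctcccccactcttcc
Gzmb, chr14:56262335-56262584, minus strand: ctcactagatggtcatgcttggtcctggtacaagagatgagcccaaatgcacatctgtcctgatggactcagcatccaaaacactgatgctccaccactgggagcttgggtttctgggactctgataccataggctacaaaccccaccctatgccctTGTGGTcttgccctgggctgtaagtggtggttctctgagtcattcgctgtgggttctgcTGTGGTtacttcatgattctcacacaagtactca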

How the data were processed

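The deposited scanner files hold spot and local background intensity on a linear scale for Cy3 and Cy5, and flags for spots well above background, outliers and saturation, written by Agilent Feature Extraction (version 11.5.1.1), as per the file headers. Beside these stands the authors' deposited log10 ratio of Cy5 over Cy3, corrected for background and dye by that software. The values deposited for the whole series match this log10 ratio to within 5.0e-08 and are not turned for the dye swap. Probe positions are in mm9, per the file headers.

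From the mean intensities, log2 ratios were computed with limma 3.58.1 in R 4.3.3 (normexp with an offset of 50, loess within arrays, control spots at weight 0), given the direction FAF over Conv from the labelled dyes, and averaged over the arrays. Outlier spots were left out, spots of the same probe were averaged and a probe with several spots had to be well above background at each. No spot was saturated. Intensities per diet were scaled between arrays by the Aquantile method. Measured probes numbered 25424 of 41174. A RefSeq symbol was found through the accession for 27660 probes, 46 of them among the 53 of the members, and the other probes keep the array's name.

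The arrays hybridise the same 2 RNA samples, so no test and no p-value is given. Every member is named. Of the other lists, all called genes are named, or otherwise the 2 with the largest absolute ratio, and genes beyond this were chosen after their values were seen. A marker gene that this rule names is not reported here. The members, lists and rules were chosen with earlier results of these data known. The steps were tested on simulated data.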

Additional observations from a re-analysis of the deposited data

How the results depend on the processing

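Cd8b1, Cd5 and Cd6 were the 3 members called lower in FAF without background correction, with an offset of 10, with median centring, with both filters on dim probes and on either array alone (3 in each). The software's log ratio and the value table each gave 4, adding Prf1. The mean over probes gave 2, without Cd6, a limit of 1.5-fold gave 5 and a limit of 4-fold gave 0. No member was called higher under any of the 12 alternatives. Of the other T cell pathway genes, 1 was lower by the software's ratio and by the value table, and 2 at 1.5-fold. The median of the receptor and signalling genes was -0.52 by the software's ratio and by the value table, and from -0.34 to -0.19 on single arrays. That of the cytotoxic genes was -0.37 with an offset of 10, -0.30 with median centring, -0.40 by the software's ratio and the value table, -0.12 with no filter on dim probes, and from -0.34 to -0.32 on single arrays. The helper and checkpoint median was -0.21 without background correction and with an offset of 10, -0.18 with median centring, -0.63 by the software's ratio and the value table, -0.069 for genes well above background in both diets, -0.025 with no filter, and from -0.148 to -0.078 on single arrays. Of 317 member ratios under alternatives, 308 had the sign of the ratio reported, and the other 9 belonged to Cd3e and Runx3, both within 0.02 of 0. Many of the 317 could not differ. Both filters on dim probes left the ratio of each member they kept unchanged, and the value table repeats the software's ratio. The mean over probes changes nothing for a member with 1 measured probe. Signal over background limits the dim members, whose ratios shrink with the offset. With 1 RNA sample for each diet, the spread between mice is unknown for every member.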
